A study of Danio rerio with 33 samples.

Results

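The 6 mature microRNAs (miRNAs) of the zebrafish miR-200, miR-141 and miR-429 family are described here across 11 groups: dre-miR-200b, dre-miR-200a and dre-miR-429a, and dre-miR-429b, dre-miR-141 and dre-miR-200c. They were taken by their miRNA number, with any letter or arm, from a profile of 247 known mature miRNAs, of which 238 had a read in at least 1 library. All 6 had reads in each of the 32 libraries, and no value was filtered out. Levels are normalised read counts, the deposited values in which the reads of each library were multiplied by a single factor.

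Small RNA was sequenced from wild type zebrafish of the Singapore strain, bought from a local supplier and given no treatment. The groups were embryo, female gut, male gut, female liver, male liver, heart, eye, ovary, testis, female brain and male brain, with 3 libraries each and 2 for heart. The tissues came from adult fishes, and each library pooled the tissue of several fishes, so a library is a pool and not an animal. The embryo libraries pooled early embryonic stages with juveniles, which makes each embryo value an average over stages. The labels give no sex for embryo, eye and heart, and the study's text describes eye and heart as male tissues. The question of the study was which miRNAs were associated with a tissue or with a sex.

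The miR-200 family is a textbook marker of epithelial cells. In vertebrates its members repress the transcription factors zeb1 and zeb2, which otherwise switch off E-cadherin and other epithelial genes, and zeb1 and zeb2 in turn repress the family's genes. In zebrafish the family is known from epithelial and sensory structures, such as the olfactory epithelium, where it is needed for neurons to differentiate. In mice, miR-200b and miR-429 in the pituitary are needed for ovulation. A miRNA finds its targets mainly through its seed, a short stretch near its 5′ end. By that seed the family falls into a class with miR-200b, miR-200c and miR-429 and a class with miR-200a and miR-141.

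The genes lie in 2 runs of 3. In the RefSeq gene table of the GRCz12tu assembly, used here for names and neighbours only, mir200b, mir200a and dre-mir-429 (the gene of dre-miR-429a) were direct neighbours on a chromosome, and mir429b, mir141 and mir200c were direct neighbours on another. Each run thus held both seed classes. Members of 1 seed class are close in sequence along their whole length, so reads of one may have been counted on another, and how such reads were shared out is not given in the sources used here. The values of dre-miR-200a against dre-miR-141, and of dre-miR-200b, dre-miR-200c, dre-miR-429a and dre-miR-429b against each other, are uncertain to that extent.

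The libraries held 277699 to 11732555 miRNA reads, lowest in ovary replicate 1 and highest in heart replicate 2. The 6 miRNAs together took 0.0169% to 0.566% of the reads of a library. Any 2 libraries of a group differed by more than sampling noise (chi-square per degree of freedom 3.71 to 379.7 over 31 pairs). Repeat libraries of a single RNA could differ so too, so this cannot show that the pools were separate. Each library was counted as a replicate because the study describes biological replicates. The tissue labels were checked with miRNAs of known tissues. The neural list (miR-9 and miR-124), the hepatocyte miR-122, the gonadal miR-202 and the early embryonic miR-430 were highest in the groups they name. The heart libraries went against their label in part. Their muscle list (miR-1, miR-133, miR-206 and miR-499) summed to 8171 and 9368, against 1387 to 1574 in eye, yet their sensory and photoreceptor list (miR-96, miR-182 and miR-183) summed to 59124 and 72273, against 83185 to 86719 in eye and 3562 or less in every library of the other 9 groups. A heart value here is therefore the value of a library that also carries eye miRNAs.

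The family was highest in gut and lowest in male brain, testis and female brain. The summed normalised read count of the 6 miRNAs averaged 5879 ± 916 in female gut and 5645 ± 411 in male gut (SD, n = 3 each), 2561 ± 170 in embryo, 1449 ± 198 in female liver and 2385 ± 625 in male liver. It averaged 1240 ± 371 in eye, 1038 ± 66.5 in ovary, 401 ± 269 in female brain, 360.3 ± 143.3 in testis and 244 ± 74.7 in male brain (SD, n = 3 each), and was 902 and 717 in the heart libraries. In bulk tissue, fewer epithelial cells and less of a miRNA per cell cannot be told apart.

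**Figure D1:**
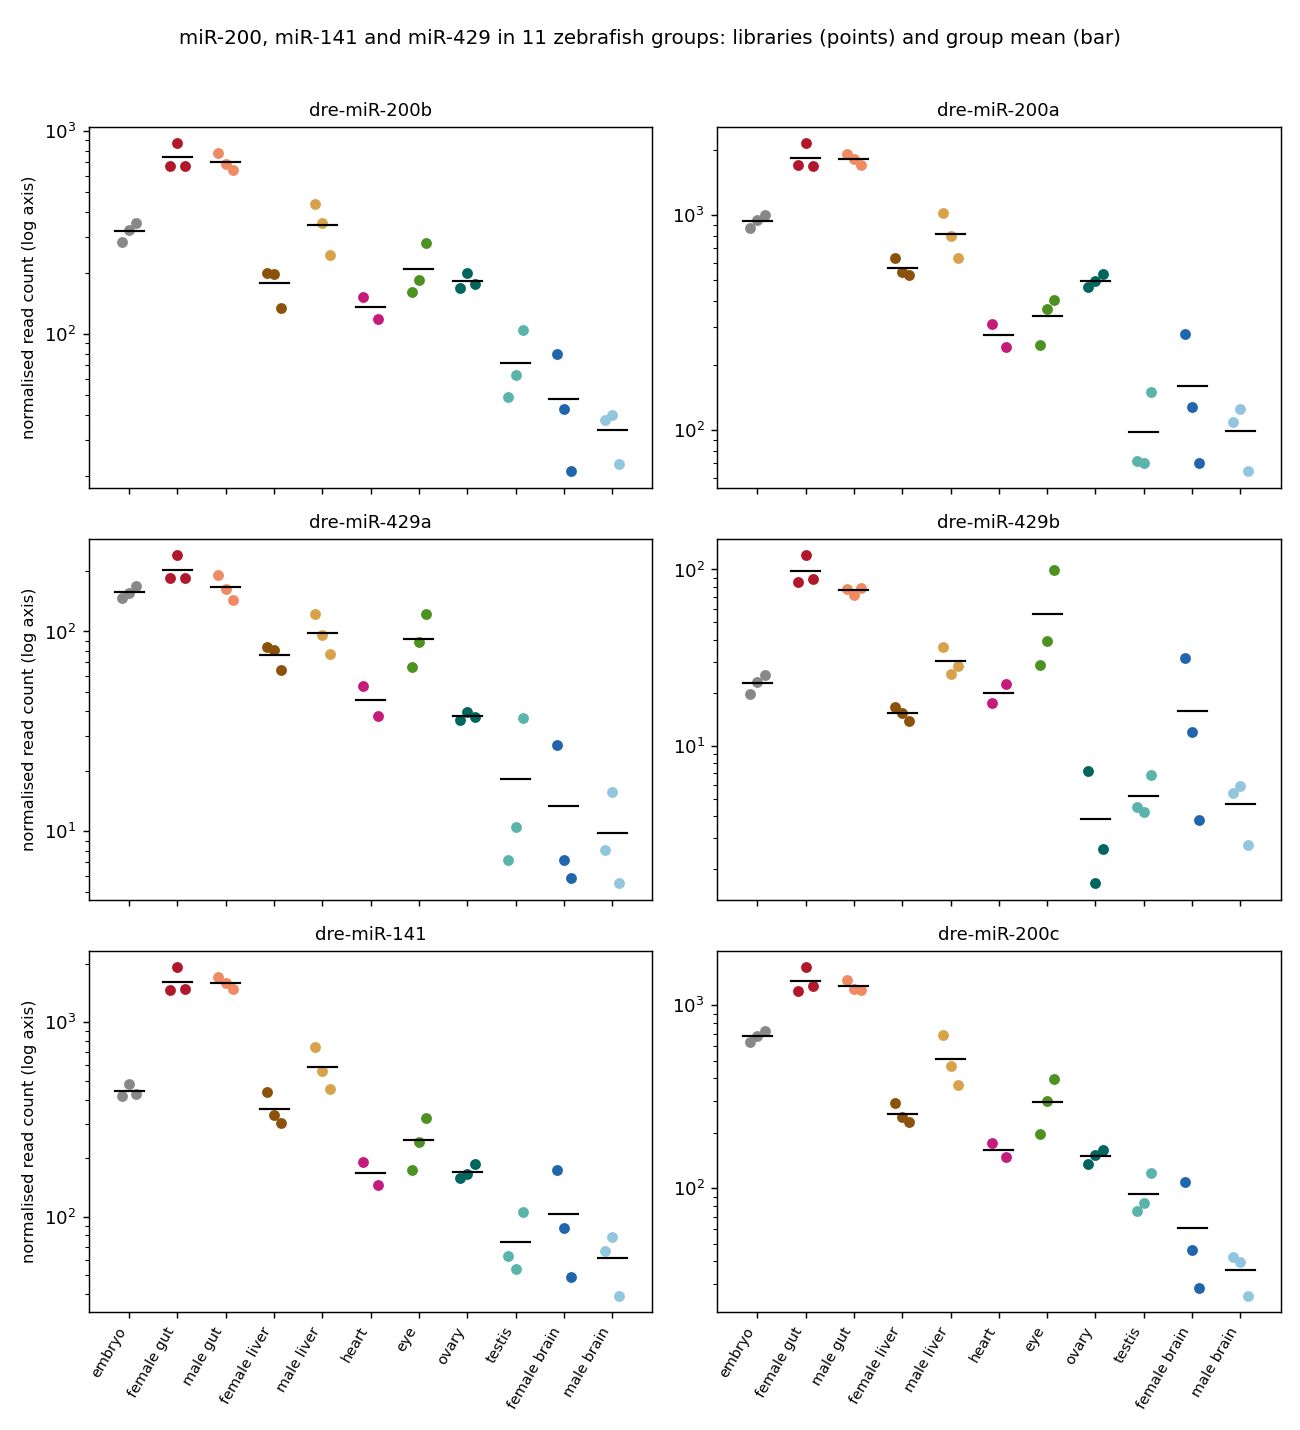
Normalised read count (log axis) of each of the 6 miRNAs in the 11 groups, with 1 point a library and a bar at the group mean. Both gut groups had the highest means in every panel, with libraries between 644 and 873 for dre-miR-200b and between 1687 and 2165 for dre-miR-200a, while embryo overlapped male gut for dre-miR-429a and an eye library reached 99.4 for dre-miR-429b.

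Among the members, dre-miR-200a was the most abundant by mean read count in every group, and dre-miR-429b the least abundant in every group but female brain, where dre-miR-429a was. All are of nearly the same length, though ligation and amplification can favour one small RNA over another, so an order among members is an order of reads. Group means spanned 38.0-fold for dre-miR-200c, 26.4-fold for dre-miR-141, 25.7-fold for dre-miR-429b, 22.1-fold for dre-miR-200b, 20.8-fold for dre-miR-429a and 19.02-fold for dre-miR-200a between the highest and the lowest group. Female gut was the highest group and male gut the next for all 6. The lowest group was male brain for dre-miR-200b, dre-miR-429a, dre-miR-141 and dre-miR-200c, testis for dre-miR-200a and ovary for dre-miR-429b. Of 10 neighbouring pairs per member in that order, 7 to 9 had overlapping libraries, and 0 were called in any member. Neighbours in an order by mean are the closest groups, so few calls follow from the ordering itself. Some steps were wide, as for dre-miR-141 from 1597 in male gut to 587 in male liver. Neither count was made over all miRNAs.

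Gut against brain was the widest comparison for dre-miR-200c and among the widest for the rest. A difference was called when edgeR's quasi-likelihood fit with glmTreat gave an adjusted p of at most 0.05 (Benjamini-Hochberg over 238 miRNAs) against a log2 fold change of 1, and fold changes are the tissue named first over the second. All 6 miRNAs were called higher in female gut than in female brain, where 64.7% of all miRNAs were called in either direction. All 6 were also called higher in male gut than in male brain, where 62.2% of all were called. With so many miRNAs called, the count alone says little about the family. The median log2 fold change of the 6 was 4.03 beside 0.00 over all miRNAs in females and 4.33 beside -0.09 over all miRNAs in males. These comparisons and the next share libraries, since each group enters several of them.

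In the run of mir200b, mir200a and dre-mir-429, dre-miR-200b stood at 674, 873 and 676 normalised reads in female gut and at 79.4, 42.8 and 21.1 in female brain, and at 783, 691 and 644 in male gut and 37.6, 40.1 and 23.0 in male brain. Its log2 fold changes were 4.04, SE 0.35 (adjusted p = 7.23e-10) and 4.44, SE 0.36 (adjusted p = 1.55e-10). No gut library overlapped a brain library for this or any other member, and overlap was not counted over all miRNAs. The most abundant member, dre-miR-200a, had 1703, 2165 and 1687 normalised reads in female gut against 279.7, 128 and 70.0 in female brain, and 1933, 1826 and 1704 in male gut against 109, 125 and 64.2 in male brain. The log2 fold changes of dre-miR-200a were 3.58, SE 0.35 in females and 4.22, SE 0.37 in males. dre-miR-429a, which shares the seed of miR-200b, had 184, 241 and 185 in female gut against 27.0, 7.21 and 5.85 in female brain, and 191.6, 163 and 144.5 in male gut against 8.06, 15.8 and 5.49 in male brain. Its log2 fold changes were 4.17, SE 0.46 and 4.22, SE 0.47.

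In the run of mir429b, mir141 and mir200c, dre-miR-141, which shares the seed of miR-200a, had 1463, 1918 and 1476 normalised reads in female gut against 174, 87.0 and 49.0 in female brain. In males it had 1715, 1601 and 1475 in gut against 66.5, 78.2 and 39.3 in brain, and its log2 fold changes were 4.02, SE 0.35 in females and 4.74, SE 0.36 in males. The widest gap belonged to dre-miR-200c, of the miR-200b seed class. It had 1207, 1617 and 1272 in female gut against 109, 46.2 and 28.7 in female brain, and 1381, 1236 and 1218 in male gut against 42.3, 39.4 and 26.0 in male brain. That is 23.6-fold in females (log2 4.56, SE 0.35, adjusted p = 3.18e-11) and 36.6-fold in males (log2 5.19, SE 0.37, adjusted p = 3.70e-12). The scarcest member, dre-miR-429b, had 84.9, 121 and 88.7 in female gut against 31.6, 12.0 and 3.81 in female brain, and 77.9, 71.9 and 78.3 in male gut against 5.37, 5.91 and 2.74 in male brain. Its log2 fold changes were 2.90, SE 0.46 and 4.18, SE 0.53, the smaller one in females.

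The brain values varied between replicates. Female brain replicate 1 was the highest of the 6 brain libraries for every member, and female brain replicate 3 and male brain replicate 3 held the lowest sums. The summed level was 700.3, 323.7 and 178.4 in the female brain libraries, which held 1258317, 1965009 and 6894023 reads, and 268.6, 304.2 and 160.7 in the male brain libraries, which held 1327727, 1478583 and 4497770 reads. The deepest library of each sex was thus the lowest. The sensory list stood at 2424, 1350 and 1600 in the female brain libraries, with miR-96 (dre-miR-96) at 479, 201 and 258, so replicate 1 was highest there too. The list of other epithelial miRNAs (miR-192, miR-194, miR-203 and miR-205) did not follow, with 701, 714 and 552. Whether depth or other tissue in the dissected sample had a part in these brain values was not tested.

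By group means, liver lay between gut and brain of the same sex, except for dre-miR-429b in females. All 6 miRNAs were called higher in male liver than in male brain (66.4% of all miRNAs called), and 5 of 6 in female liver than in female brain (65.1% of all called). The median log2 fold change of the 6 was 1.94 beside 0.13 over all miRNAs in females and 3.35 beside 0.00 over all miRNAs in males. For dre-miR-200a the liver libraries had 631, 542 and 523 normalised reads in females, a log2 fold change of 1.87, SE 0.34 over female brain, and 1017, 798 and 633 in males, 3.06, SE 0.35 over male brain. For dre-miR-200c they had 292, 247 and 231 in females, 2.16, SE 0.33, and 689, 466 and 368 in males, 3.87, SE 0.35. The exception was dre-miR-429b, with 16.7, 15.3 and 13.7 in female liver against 31.6, 12.0 and 3.81 in female brain (log2 fold change 0.25, SE 0.55, adjusted p = 0.956), where the libraries overlapped. Without female liver replicate 1 the count of called members in females was 3 of 6, as dre-miR-141 and dre-miR-200a fell below the threshold (adjusted p = 0.0996 and 0.0637). The count over all miRNAs in that fit is not given here.

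Gut was also compared with liver within each sex. In females 5 of 6 were called higher in gut than in liver by edgeR's glmTreat (23.9% of all miRNAs called). DESeq2 called 4 of 6, with 48 of all 238 miRNAs against 57 in edgeR. The log2 fold changes in edgeR were 2.04, SE 0.32 for dre-miR-200b, 1.71, SE 0.33 for dre-miR-200a, 2.65, SE 0.49 for dre-miR-429b, 2.17, SE 0.32 for dre-miR-141 and 2.40, SE 0.32 for dre-miR-200c. The member that was not called, dre-miR-429a, had 184, 241 and 185 in female gut against 83.3, 80.5 and 64.0 in female liver (log2 fold change 1.40, SE 0.40, adjusted p = 0.181). Leaving out female gut replicate 2 or female liver replicate 2 each took dre-miR-200a below the threshold (adjusted p = 0.0669 and 0.0933). In males 0 of 6 were called by edgeR's glmTreat and 0 by DESeq2 (5.46% of all called by edgeR). In edgeR's glmTreat 2 of 6 had an unadjusted p no higher than 0.05, as had 38 of all 238 miRNAs. The median over the 6 was 2.10 beside 0.06 over all miRNAs in females and 1.23 beside 0.11 over all miRNAs in males. The male log2 fold changes were 1.03 for dre-miR-200b, 1.16 for dre-miR-200a, 0.75 for dre-miR-429a, 1.31 for dre-miR-429b, 1.44 for dre-miR-141 and 1.33 for dre-miR-200c. No male gut library overlapped a male liver library in any member, and overlap was not counted over all miRNAs. For dre-miR-141 the male libraries were 1715, 1601 and 1475 in gut against 746, 559.6 and 455 in liver, and for dre-miR-200b 783, 691 and 644 against 438, 351 and 246. The hepatocyte miR-122 was at 7977 to 11329 in female gut and 1855 to 2355 in male gut, against 77658 to 124047 in female liver and 31463 to 45261 in male liver. The pancreas list (miR-216, miR-217 and miR-375, all 4 of its miRNAs above 0 in every library) summed to 4642 to 5509 in female gut and 5948 to 6839 in male gut, against 1990 to 2991 in female liver and 4912 to 5858 in male liver. The pancreas list also summed to 1257 to 1368 in female brain and 1274 to 1560 in male brain, so its miRNAs were not confined to gut and liver. Markers of liver and pancreas were thus present in gut, and those of pancreas in liver and brain too. The part of liver or pancreas material in the gut and liver values was not tested.

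A tissue associated miRNA, in the sense of the study, is higher than in each of the other tissues and the embryo, with male and female samples taken in turn. Of the 6 members 0 met this for gut (0.420% of all miRNAs, 1 of 238, did), since none was called higher in gut of either sex than in male liver. dre-miR-141 came nearest and was called higher in gut than in 8 of 9 groups, in each sex. dre-miR-200a, dre-miR-200b and dre-miR-200c passed against 7 of 9, failing against embryo and male liver, dre-miR-429b passed against 7, failing against male liver and eye, and dre-miR-429a passed against 5. The count was 1 of 6 in 12 of the 32 fits that left out a library, namely each library of embryo, ovary and eye in turn, male brain replicate 1, female brain replicate 2 and male liver replicate 1. For these fits the count over all miRNAs is not given here.

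**Figure D2:**
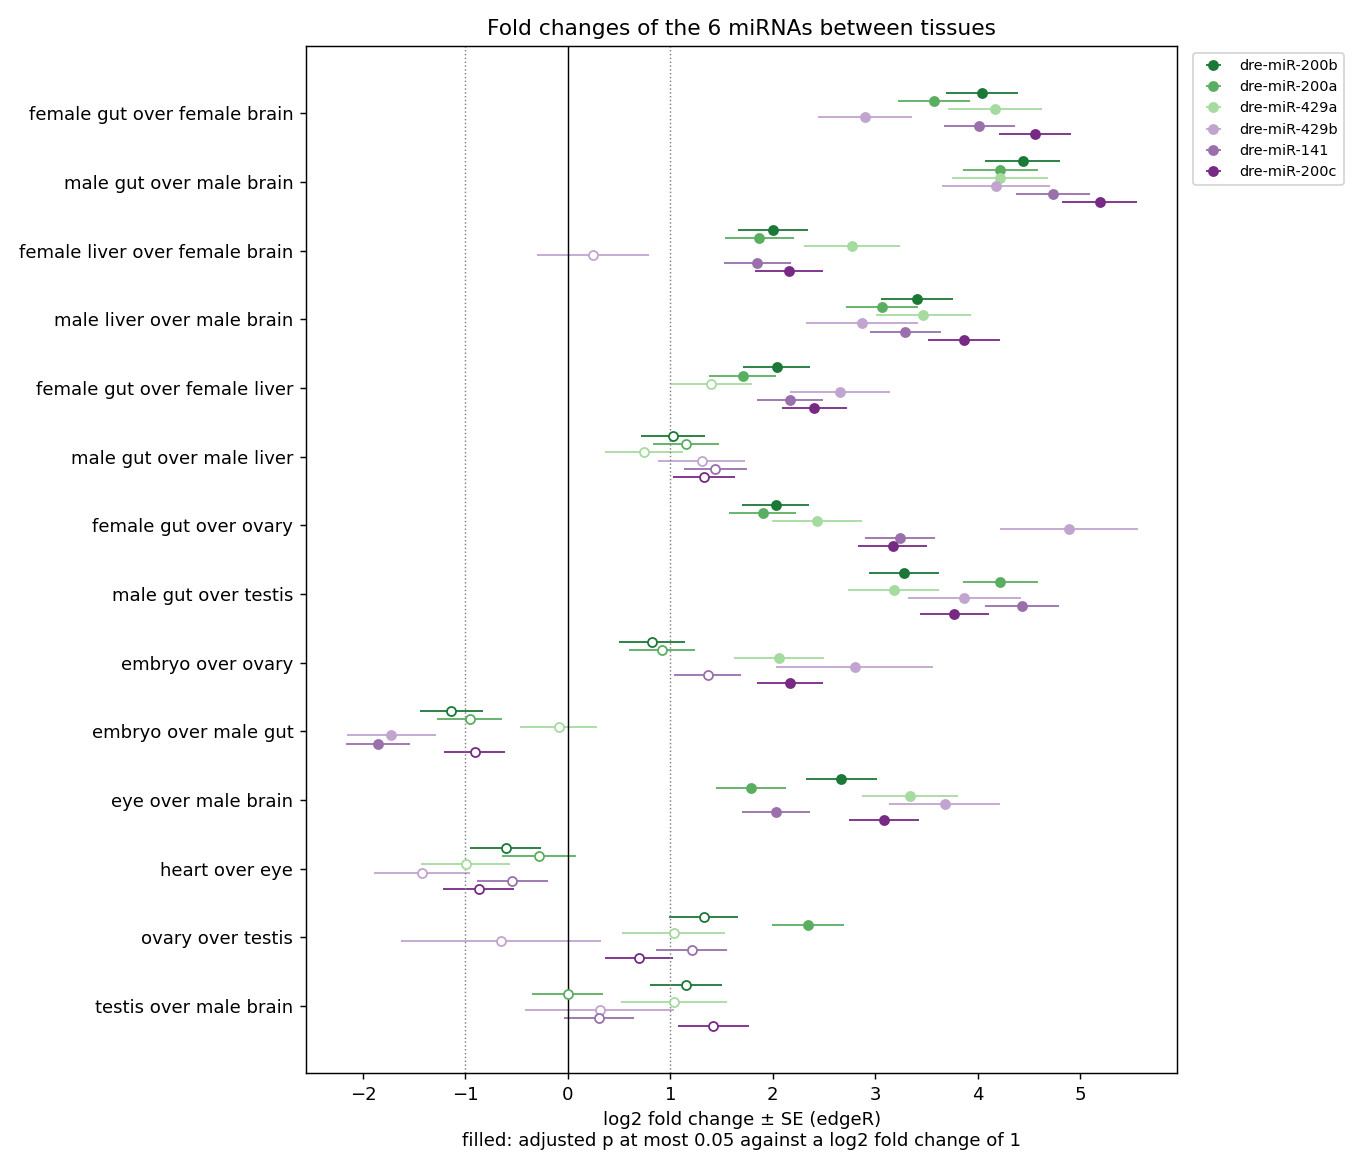
Log2 fold change with its SE for the 6 miRNAs in 14 comparisons of tissues, the group named first over the second, with filled points called by edgeR's glmTreat against a log2 fold change of 1 (dotted lines). Gut over brain reached 5.19 for dre-miR-200c in males, and heart over eye and testis over male brain had no filled point.

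The list of other epithelial miRNAs separated in these same comparisons. Of its 7 miRNAs, the intestinal dre-miR-192, dre-miR-194a and dre-miR-194b were called higher in gut than in brain in both sexes, with log2 fold changes of 10.85, 10.13 and 9.26 in males. The epidermal dre-miR-203a, dre-miR-203b-3p, dre-miR-203b-5p and dre-miR-205 were not called higher, and dre-miR-205 was called lower in female gut than in female brain (log2 fold change -1.64, SE 0.34, adjusted p = 0.0134 in edgeR's glmTreat). In eye over male brain the 4 epidermal miRNAs were called higher while dre-miR-192 and dre-miR-194a were called lower. The 6 miR-200 family members were called higher in both comparisons. Of all miRNAs, 64.7% were called in either direction in female gut over female brain and 62.2% in male gut over male brain. In eye over male brain 49.2% were called, so these counts alone say little about the family.

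Gonads were compared with gut and with each other. All 6 members were called higher in female gut than in ovary (41.2% of all miRNAs called) and in male gut than in testis (37.8%), with medians of 2.80 beside -0.06 over all miRNAs and 3.82 beside 0.00 over all miRNAs. The log2 fold changes over ovary were 2.03 for dre-miR-200b and 1.90 for dre-miR-200a, against 3.24 for dre-miR-141 and 3.17 for dre-miR-200c. For dre-miR-429a and dre-miR-429b they were 2.43 and 4.89. In each of these 3 pairs of seed mates the one from the mir429b, mir141 and mir200c run had the larger value. The same order held in male gut over testis and in gut over liver of both sexes, so it was not particular to ovary. Over testis the values were 3.77 for dre-miR-200c and 3.28 for dre-miR-200b. In gut over brain, dre-miR-429b had the smaller value of its pair in both sexes. These differences within pairs were not tested. Over testis the log2 fold changes lay between 3.18 for dre-miR-429a and 4.43 for dre-miR-141. dre-miR-429b was almost absent from ovary, with 3, 1 and 3 reads, so its ratio rests on few reads. Over the summed reads of the group, scaled by the normalization factors, it was 29.8-fold higher in female gut than in ovary (95% counting interval 14.4 to 74.2, counting error only).

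Between the gonads 1 of 6 members was called (30.3% of all miRNAs called), and the median log2 fold change was 1.12 beside 0.29 over all miRNAs. dre-miR-200a had 460.2, 493 and 531 normalised reads in ovary against 71.6, 70.4 and 150.04 in testis (log2 fold change 2.35, SE 0.35, adjusted p = 0.000276). dre-miR-200b had 168, 199.7 and 177 in ovary against 49.2, 62.8 and 105 in testis (1.32, SE 0.34, adjusted p = 0.156). For both, as for dre-miR-141 and dre-miR-200c, no ovary library overlapped a testis library, but only dre-miR-200a passed the threshold. Overlap was not counted over all miRNAs. dre-miR-141 had 158, 165 and 186 in ovary against 62.6, 53.7 and 106 in testis (1.21, SE 0.35, adjusted p = 0.246). dre-miR-200c had 137, 152 and 163 against 75.1, 83.7 and 121 (0.70, SE 0.33, adjusted p = 0.867). Testis replicate 3 was the highest testis library for all 6 members, and for dre-miR-429a, with 36.0, 39.6 and 37.3 in ovary against 7.16, 10.46 and 36.9 in testis (1.03, SE 0.50, adjusted p = 0.467), it fell among the ovary libraries. Without it, 3 of 6 were called, dre-miR-200b and dre-miR-429a being added. The count over all miRNAs in that fit is not given here, so the rise alone says little about the family. The list of other epithelial miRNAs moved with that library, at 6014, 7598 and 10474 in ovary against 481, 635 and 2239 in testis, and its part in the testis values was not tested. dre-miR-429b, at 7.19, 1.65 and 2.60 in ovary against 4.47, 4.18 and 6.79 in testis, gave a ratio of 0.624 with a counting interval of 0.223 to 1.54.

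Testis was also compared with male brain, the other low group. Of the 6, 0 were called by edgeR's glmTreat in testis over male brain and 0 by DESeq2 (55.5% of all miRNAs called by edgeR), and 1 of 6 had an unadjusted p no higher than 0.05. That one was dre-miR-200c, with 75.1, 83.7 and 121 in testis against 42.3, 39.4 and 26.0 in male brain (1.42, SE 0.34, adjusted p = 0.0640), which was called without male brain replicate 1 (adjusted p = 0.0205) or without testis replicate 1 (adjusted p = 0.0433). dre-miR-200b had a log2 fold change of 1.16, SE 0.35, also with no overlap of libraries, while that of dre-miR-200a was near 0 (SE 0.35). Overlap was not counted over all miRNAs.

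The summed level of the family in the embryo pool was above that of ovary and below that of gut. In embryo over ovary 3 of 6 were called higher (45.0% of all miRNAs called), and the median log2 fold change was 1.71 beside 0.31 over all miRNAs. dre-miR-200c had 635, 679 and 729 in embryo against 137, 152 and 163 in ovary (2.17, SE 0.33, adjusted p = 0.000356), dre-miR-429a had 146, 156 and 168 against 36.0, 39.6 and 37.3 (2.06, SE 0.44, adjusted p = 0.00688), and dre-miR-429b had 19.7, 23.1 and 25.3 against 7.19, 1.65 and 2.60 (2.80, SE 0.76, adjusted p = 0.0116). The ratio of the summed reads of dre-miR-429b was 7.33 (counting interval 3.47 to 18.6). No embryo library overlapped an ovary library in any member (overlap was not counted over all miRNAs), including the 3 that were not called. These were dre-miR-141, with 415, 482 and 427 in embryo against 158, 165 and 186 in ovary (1.37, SE 0.33, adjusted p = 0.0922), dre-miR-200a (0.92, SE 0.32) and dre-miR-200b (0.82, SE 0.32). dre-miR-141 was called without embryo replicate 1 (adjusted p = 0.0471) or without ovary replicate 3 (adjusted p = 0.0451). Of the other epithelial miRNAs, the 4 epidermal ones were called higher in embryo than in ovary, and dre-miR-192, dre-miR-194a and dre-miR-194b were not.

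In embryo over male gut 2 of 6 were called, both lower (49.6% of all miRNAs called), with a median of -1.05 beside 0.23 over all miRNAs. dre-miR-141 had 415, 482 and 427 in embryo against 1715, 1601 and 1475 in male gut (-1.86, SE 0.31, adjusted p = 0.00250), and dre-miR-429b had 19.7, 23.1 and 25.3 against 77.9, 71.9 and 78.3 (-1.72, SE 0.43, adjusted p = 0.0301). The second call was lost without any of the 3 embryo libraries (adjusted p 0.0881 to 0.131), which left 1 of 6. For these fits the count over all miRNAs is not given here. The other extreme was dre-miR-429a, with 146, 156 and 168 in embryo against 191.6, 163 and 144.5 in male gut (log2 fold change -0.09, SE 0.38). The log2 fold changes of the other 3 were -1.14 for dre-miR-200b, -0.96 for dre-miR-200a and -0.91 for dre-miR-200c, and differences between members were not tested.

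Eye was compared with male brain. All 6 were called higher in eye by edgeR's glmTreat (49.2% of all miRNAs called), with a median of 2.88 beside -0.07 over all miRNAs. DESeq2 called 4 of 6, all but dre-miR-200a and dre-miR-141, with 104 of all 238 miRNAs against 117 in edgeR. The log2 fold changes in edgeR were smallest in the miR-200a seed class, 1.79, SE 0.34 for dre-miR-200a and 2.03, SE 0.34 for dre-miR-141. They were 2.67, SE 0.35 for dre-miR-200b, 3.09, SE 0.34 for dre-miR-200c, 3.34, SE 0.47 for dre-miR-429a and 3.68, SE 0.54 for dre-miR-429b. In the eye libraries dre-miR-200a was at 249, 366 and 400.4 and dre-miR-141 at 174, 243 and 323. Of the other seed class dre-miR-200b was at 161, 184 and 279.8, dre-miR-200c at 198, 302 and 396, dre-miR-429a at 66.4, 88.1 and 121.6 and dre-miR-429b at 28.7, 39.1 and 99.4. Eye replicate 3 was thus the highest eye library in each member. The reads of the eye libraries were 2822630, 1200985 and 1007911, so the highest values came from the shallowest library, and the list of other epithelial miRNAs, at 6514, 8809 and 7456, was highest in replicate 2. The part of depth was not tested. The call of dre-miR-200a was lost without eye replicate 3 (adjusted p = 0.0708) or without male brain replicate 3 (adjusted p = 0.0504).

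Heart over eye had 0 of 6 called by edgeR's glmTreat and 0 by DESeq2 (4.62% of all miRNAs called by edgeR), and 0 had an unadjusted p no higher than 0.05. All 6 log2 fold changes were below 0, from -0.28, SE 0.36 for dre-miR-200a to -1.42, SE 0.46 for dre-miR-429b. dre-miR-429b had 17.4 and 22.5 in heart against 28.7, 39.1 and 99.4 in eye, and dre-miR-200c had 176 and 148 against 198, 302 and 396. The heart libraries also held sensory miRNAs at the levels given above, and the part of eye material in the heart values was not tested.

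**Figure D3:**
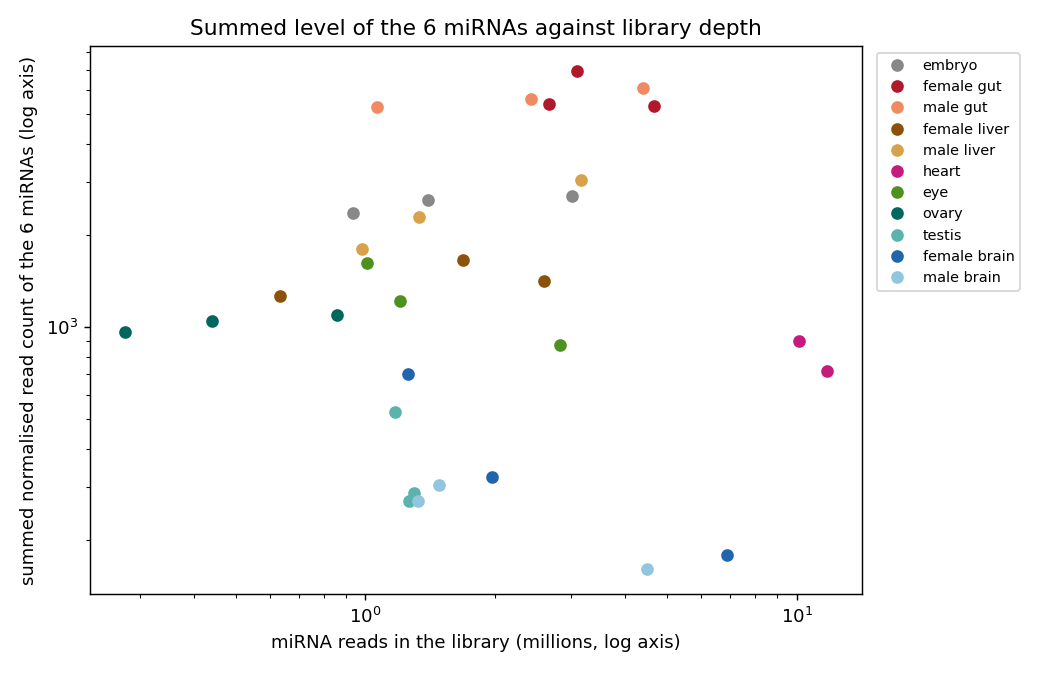
Summed normalised read count of the 6 miRNAs (log axis) against the miRNA reads of the library (log axis), with 1 point a library coloured by group. Within brain and eye the deepest library was the lowest (178.4 and 160.7 in female and male brain), while in male liver the deepest library was the highest (3049) and the ovary libraries stayed between 966 and 1097 over their depths.

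Females and males were compared within gut, liver and brain. In gut 0 of 6 members were called by edgeR's glmTreat or by DESeq2 (2.94% of all miRNAs called by edgeR), and 0 had an unadjusted p no higher than 0.05. The log2 fold changes of female over male gut ran from 0.02, SE 0.30 for dre-miR-141 to 0.37, SE 0.39 for dre-miR-429b. The gut libraries overlapped between the sexes in every member but dre-miR-429b, at 84.9, 121 and 88.7 in female gut against 77.9, 71.9 and 78.3 in male gut.

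In liver 0 of 6 were called by edgeR's glmTreat or by DESeq2 (15.1% of all miRNAs called by edgeR), and 0 had an unadjusted p no higher than 0.05, although every member's mean was lower in females. The median log2 fold change of the 6 was -0.83 beside -0.13 over all miRNAs. For 5 of the 6, all but dre-miR-429a, no female library overlapped a male one. Overlap was not counted over all miRNAs, so this count alone says little about the family. dre-miR-200c had 292, 247 and 231 in female liver against 689, 466 and 368 in male liver (log2 fold change -0.98, SE 0.31, adjusted p = 0.814), and dre-miR-200b had 201, 198 and 135 against 438, 351 and 246 (-0.94, SE 0.32, adjusted p = 0.865). dre-miR-141 had 439, 332 and 304 in female liver against 746, 559.6 and 455 in male liver (-0.71, SE 0.31), and dre-miR-429b had 16.7, 15.3 and 13.7 against 36.5, 25.6 and 28.3 (-0.98, SE 0.52). The smallest gaps were those of the other members of the dre-mir-429 run, -0.53 for dre-miR-200a and -0.37 for dre-miR-429a, whose libraries were at 83.3, 80.5 and 64.0 in female liver against 122.4, 96.4 and 77.5 in male liver. A set of epithelial miRNAs did pass the same test in this comparison: the epidermal dre-miR-203a, dre-miR-203b-3p, dre-miR-203b-5p and dre-miR-205 were called lower in female liver, with log2 fold changes of -2.07, -2.47, -2.22 and -2.29. The intestinal dre-miR-192 and dre-miR-194a were at 0.23 and 0.18. The pancreas list was also lower in female liver, at 2541, 2991 and 1990 against 5858, 4912 and 5007 in male liver, with no overlap, and the leukocyte list was at 2456, 3235 and 2269 against 5252, 4173 and 4058. Of their miRNAs 0 of 4 and 1 of 6 were called, beside 15.1% of all miRNAs. The drop was not confined to these lists. The neural list was at most 177 in female liver against at least 428 in male liver, and the sensory list at most 62.1 against at least 66.6. The hepatocyte and early embryonic markers were higher in female liver, with no overlap. The part of these cell types was not tested.

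In brain 0 of 6 were called by edgeR's glmTreat or by DESeq2 (3.78% of all miRNAs called by edgeR). An unadjusted glmTreat p no higher than 0.05 was found for 14 of all 238 miRNAs and for 1 of 6 members. That member, dre-miR-429b, had 31.6, 12.0 and 3.81 in female brain against 5.37, 5.91 and 2.74 in male brain (log2 fold change 1.65, SE 0.59, adjusted p = 0.849), and was called without female brain replicate 3 (log2 fold change 2.32, adjusted p = 0.0363). Every member's mean was higher in females, with log2 fold changes of 0.33 to 0.74 for the other 5, and the libraries overlapped in all 6.

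**Figure D4:**
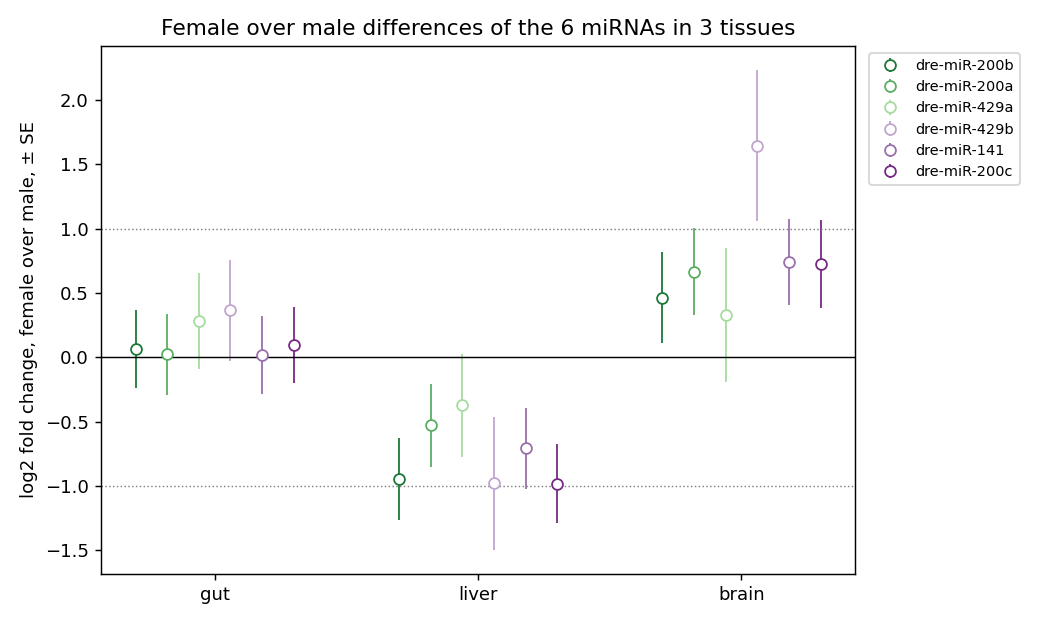
Log2 fold change of female over male with its SE for the 6 miRNAs in gut, liver and brain, where open points were not called by edgeR's glmTreat and dotted lines mark a log2 fold change of 1 in either direction. Values lay near 0 in gut, below 0 in liver (down to -0.98) and above 0 in brain (up to 1.65 for dre-miR-429b).

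The sex differences themselves differed between liver and brain. An edgeR quasi-likelihood F-test of the difference of the female over male log2 fold changes, liver minus brain, called 5 of 6 members (37.4% of all miRNAs called). This test has no fold change threshold, unlike glmTreat within each tissue, so its counts cannot be set against those counts. The difference was -1.40, SE 0.48, adjusted p = 0.0210 for dre-miR-200b, -1.20, SE 0.47, adjusted p = 0.0458 for dre-miR-200a, -2.63, SE 0.78, adjusted p = 0.00985 for dre-miR-429b, -1.45, SE 0.46, adjusted p = 0.0143 for dre-miR-141 and -1.71, SE 0.46, adjusted p = 0.00470 for dre-miR-200c. dre-miR-429a was not called, at -0.70, SE 0.66, adjusted p = 0.432. These calls depended on single libraries. Without female brain replicate 1 only dre-miR-200c was called (difference -1.05, adjusted p = 0.0371), and without male brain replicate 3 or male liver replicate 1 the count was 2. For these fits the count over all miRNAs is not given here. With the replicate number as a block dre-miR-200a was not called (adjusted p = 0.0585). Of the other epithelial miRNAs 1 of 7, dre-miR-205, was called in this test (difference -1.43, SE 0.47, adjusted p = 0.0174). Of the marker lists of other tissues, 3 of 4 were called in the pancreas list and 3 of 4 in the sensory and photoreceptor list, all below 0. In the leukocyte list 2 of 6 and in the neural list 1 of 3 were called, also below 0. Those last 2 shares were no higher than the 37.4% over all miRNAs. In the striated muscle list 2 of 8 were called, both above 0, and in the mesenchymal and smooth muscle list 2 of 5 above and 1 below 0. The sensory list was highest in female brain replicate 1, as given above, and the part of these markers was not tested.

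For gut against brain 0 of 6 differences of the sex effects were called by edgeR or by DESeq2 (10.1% of all miRNAs called by edgeR). In edgeR's F-test 0 of 6 had an unadjusted p no higher than 0.05, and 67 of all 238 miRNAs did. The values ran from -1.28 for dre-miR-429b to -0.04 for dre-miR-429a. Without female brain replicate 3, dre-miR-429b was called (difference -1.95, adjusted p = 0.0380). For gut against liver 0 of 6 were called by either tool (26.5% of all called by edgeR). In edgeR's F-test 3 of 6 had an unadjusted p no higher than 0.05, as had 93 of all 238 miRNAs. The values ran from 0.55 for dre-miR-200a to 1.35 for dre-miR-429b. The count was 2 without female liver replicate 1, dre-miR-200b and dre-miR-200c, and 1 without male liver replicate 3, dre-miR-200c. For these fits the count over all miRNAs is not given here.

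Ratios of members within a library do not depend on how libraries are scaled. Across the 11 group means, the 15 pairs of members had Pearson correlations of log2 levels from 0.733 to 0.985, a description over groups that share the sequencing and the normalization. dre-miR-200b and dre-miR-200c were the pair with 0.985, from different gene runs and of the same seed. Pairs with dre-miR-429b were the loosest. Yet the SD of the ratios between group means was larger than the SD of single libraries within groups. A mean of 2 or 3 libraries varies less than a single library, so the 2 SDs are not on the same scale. They were closest for log2 dre-miR-429a over dre-miR-200c, at 0.426 between and 0.352 within groups. The group mean of log2 dre-miR-200a over dre-miR-141 spanned 1.35, with an SD of 0.395 between groups and 0.0936 within. That of dre-miR-200b over dre-miR-200c spanned 1.36 (SD 0.382 between and 0.149 within groups). That of dre-miR-200a over dre-miR-200c spanned 1.72 (SD 0.551 between and 0.131 within groups).

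Ovary stood out in these ratios. The log2 ratio of dre-miR-200a to dre-miR-141 was 1.07, 0.97 and 1.22 in embryo, the next highest group, and 1.54, 1.58 and 1.51 in ovary, above every other library. The lowest group means were those of gut, with 0.22, 0.17 and 0.19 in female gut and 0.17, 0.19 and 0.21 in male gut. The log2 ratio of dre-miR-200b to dre-miR-200c gave the same extreme, with 0.30, 0.40 and 0.12 in ovary. Male brain was the next highest group, with a mean of -0.11 and its highest library at 0.02. Testis had -0.61, -0.42 and -0.21. At the other end were embryo, with -1.16, -1.06 and -1.05, and gut, with -0.84, -0.89 and -0.91 in females and -0.82, -0.84 and -0.92 in males. Both ratios set a member of the mir200b and mir200a run over its seed mate from the mir141 and mir200c run, so within both pairs ovary had the largest share of reads from the first run. For both ratios this holds to the extent that reads of the 2 seed mates were told apart.

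The ratio of dre-miR-200a to dre-miR-200c, which differ in seed and run, was tested over libraries with an exact permutation test, two-sided, exchanging labels within each sex. Its log2 mean was 0.48 ± 0.06 in gut and 1.41 ± 0.14 in brain (SD, n = 6 each), a difference of -0.93 (exact permutation p = 0.005, adjusted p = 0.01 over 4 comparisons), where 0.005 is the smallest p the arrangement allows. It was 0.48 ± 0.06 in gut and 0.92 ± 0.25 in liver (n = 6 each), a difference of -0.45 (exact permutation p = 0.01, adjusted p = 0.0133). Between liver and brain, at 0.92 ± 0.25 and 1.41 ± 0.14 (n = 6 each), the difference was -0.49 (exact permutation p = 0.005, adjusted p = 0.01). These means pool sexes that differed in liver. In females the means were 0.44 in gut, 1.14 in liver and 1.38 in brain, and in males 0.51, 0.71 and 1.44. Liver thus lay nearer brain in females and nearer gut in males, where gut and liver libraries overlapped. The gap between gut and brain was seen in all libraries, with no overlap. In ovary the log2 ratio was 1.75, 1.70 and 1.70, against -0.07, -0.25 and 0.31 in testis. That difference of 1.72 reached the smallest p that 3 against 3 libraries allow in an exact permutation test (p = 0.1). Female liver, with 1.11, 1.13 and 1.18, did not overlap male liver, with 0.56, 0.78 and 0.78, while the brain libraries overlapped between the sexes, and these sex differences of the ratio were not tested.

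**Figure D5:**
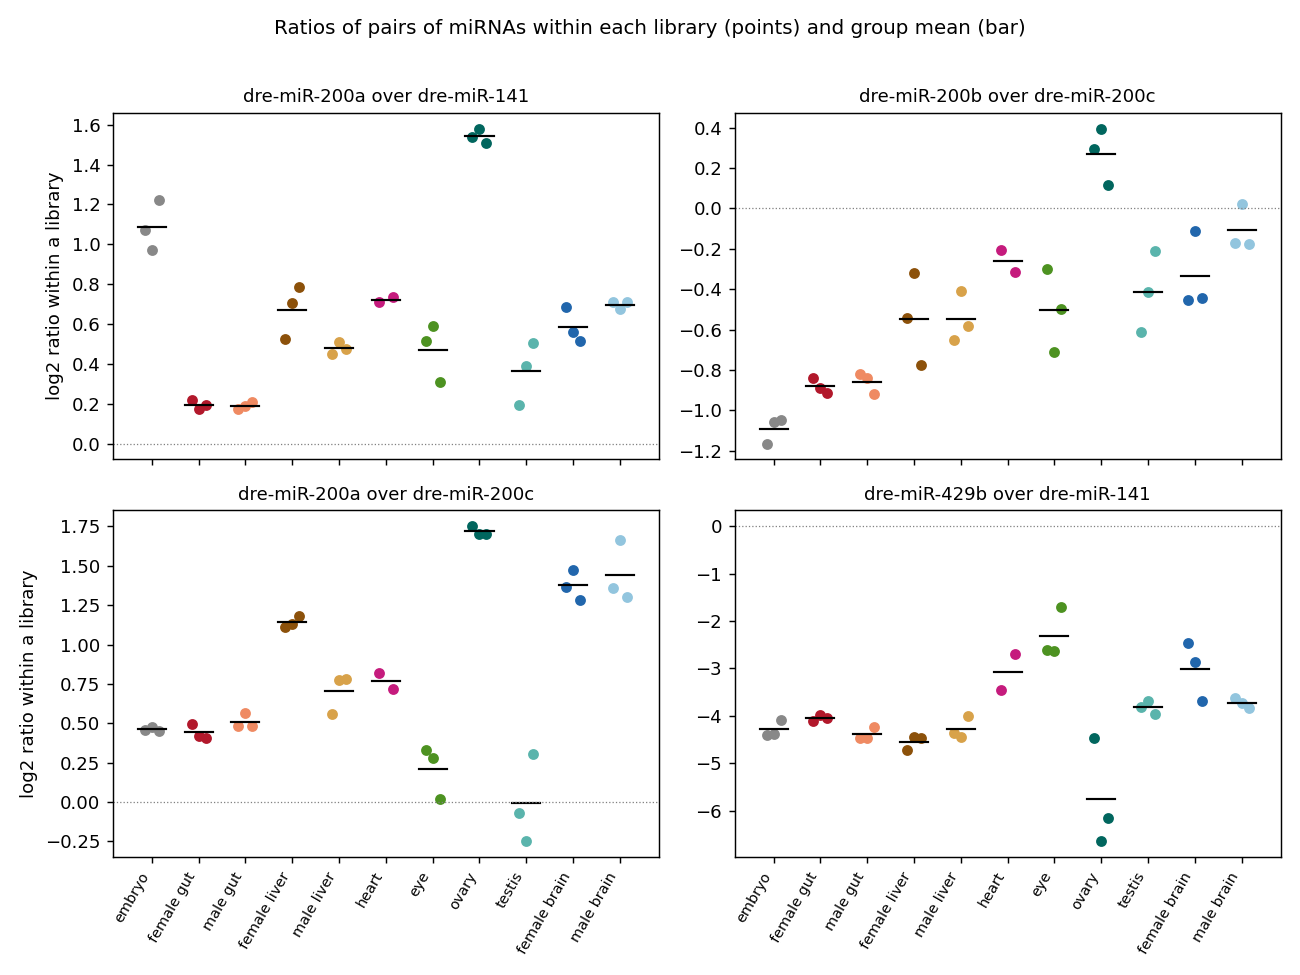
Log2 ratio of 2 members within each library for 4 pairs, by group, with 1 point a library and a bar at the group mean. The ovary libraries were the highest for dre-miR-200a over dre-miR-141 (1.51 to 1.58) and for dre-miR-200b over dre-miR-200c (0.12 to 0.40), and ovary held the lowest group mean for dre-miR-429b over dre-miR-141 (-5.76, from 1 to 3 reads of dre-miR-429b a library).

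The miRNAs whose pattern was most like that of the family were found by the mean Pearson correlation with the 6 members, over the 11 group means of log2 (normalised read count + 1), among 210 miRNAs with a mean of at least 10. They were dre-miR-1788-3p (mean correlation 0.9002), dre-miR-1788-5p (0.860), dre-miR-375 (0.838), dre-miR-142a-3p (0.821) and dre-miR-31 (0.791). miR-375 is known from pancreatic islets and other endocrine cells, and miR-142 from blood cells. dre-miR-375 averaged 1151 ± 144.95 in female gut and 1600.3 ± 154.9 in male gut, against 62.6 ± 2.58 in female brain and 267 ± 148 in male brain (SD, n = 3 each). dre-miR-31 averaged 1088 ± 275 in female gut and 970 ± 159 in male gut, against 6.99 ± 2.03 and 7.06 ± 5.04 in female and male brain. All 5 had a gut group as their highest. They were chosen by likeness to members that were highest in gut, so this and the gut and brain values are no separate finding.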

How the data were processed

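Per the study's methods, the authors trimmed adaptors with cutadapt and counted reads on known mature miRNAs of miRBase Release 19 with the mapper and quantifier of miRDeep2; the deposited counts are not normalised. The submitters' processing notes name CASAVA 1.8.2. The deposited normalised read count is a signal that the authors made by TMM in edgeR, the counts of each library times a single factor. Levels come from that signal and tests from the counts.

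edgeR 4.0.16 in R 4.3.3 was fitted with TMM, quasi-likelihood and a coefficient for each of 11 groups over 32 libraries (glmTreat against a log2 fold change of 1; F-test for differences of sex effects), with Benjamini-Hochberg adjustment over the 238 miRNAs that had a count and no filter. The fit was tested on simulated data. The p-values measure the spread between pooled libraries. In edgeR the 11 groups shared a single estimate of that spread for each miRNA, although groups differed. For dre-miR-429b the SD was 14.3 around a mean of 15.8 in female brain and 3.61 around 76.0 in male gut. Alternatives used DESeq2 1.42.0, other scalings, a filter, a replicate block, and fits without single libraries. Named miRNAs were the 6 members, those of fixed marker lists, and the 5 most alike. Members and lists were chosen with earlier results of these data known. A further heart sample has no values in the deposited profile and was not analysed here. Per the study, the authors took out 1 heart replicate because it clustered apart from the others. Intervals cover counting error only, and no sequence or coordinate was used.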

Additional observations from a re-analysis of the deposited data

Results flagged for a closer look

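The female over male difference was called different between liver and brain for 5 of the 6 miRNAs, by edgeR's quasi-likelihood F-test of the difference itself. Of all miRNAs 37.4% were called in this test, which has no fold change threshold, so the count alone says little about the family. The liver minus brain difference of the log2 fold changes was -1.40 for dre-miR-200b, -1.20 for dre-miR-200a, -2.63 for dre-miR-429b, -1.45 for dre-miR-141 and -1.71 for dre-miR-200c. Without female brain replicate 1, the highest brain library for all 6 members, these were -0.86, -0.53, -1.69, -0.86 and -1.05. Only dre-miR-200c was then still called, and the count over all miRNAs in that fit is not given here. The deepest library of each sex in brain had the lowest family sum, and the part of depth in these differences was not tested. No group had 4 or more libraries, so no test for a single outlying library was made.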

How the results depend on the processing

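No called member changed direction under any alternative, and of 1764 values of single members 1679 stayed on their side of the threshold, 39 lost and 46 gained a call. Of the uncalled values 47 took the other sign, the largest at 0.78 (log2, absolute). Scaling by library size alone, which moved the median log2 difference of all miRNAs by up to 0.88, called 2 members in female over male liver, 3 in ovary over testis, 2 in female liver over female brain, 0 in embryo over male gut and 6 in the gut against liver difference of the sexes. Over all 238 miRNAs, 66, 88, 148 and 121 were called in the first 4 of these comparisons. The main fit called 15.1%, 30.3%, 65.1% and 49.6% of all miRNAs there. In the last comparison 138 of all miRNAs were called above 0 and 4 below 0, in place of 27 and 36. That is 97.2% of the called miRNAs above 0, in place of 42.9%. With so many called above 0, the 6 members there say little about the family. A filter on low counts called 1 in testis over male brain, with 134 of all miRNAs against 132 in the main fit. DESeq2 called 2 in female liver over female brain, 1 in embryo over male gut, 4 in eye over male brain and 4 in female gut over female liver. Applying the fold threshold after the test called 3 in ovary over testis, 5 in male gut over male liver and 1 in heart over eye. Over all miRNAs these were 115, 57 and 25, against 72, 13 and 11 in the main fit. It also called 2 in testis over male brain and 3 as gut associated. Over all miRNAs these were 158 and 11, against 132 and 1. Fitting the compared groups alone called 1 in male gut over male liver, 1 in testis over male brain, 3 in the liver against brain difference and 6 in the gut against liver difference. Over all miRNAs these were 17, 132, 89 and 85, against 13, 132, 89 and 63 in the main fit. The cause of these shifts was not tested.

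Leaving out single libraries gave 1 to 2 members called in embryo over male gut, 0 to 1 as gut associated, in female over male brain, in testis over male brain and in the gut against brain difference, 1 to 5 in the liver against brain difference, 3 to 5 in female liver over female brain, 0 to 2 in the gut against liver difference and 1 to 3 in ovary over testis. Counts over all miRNAs in these fits are not given here. The log2 ratio of dre-miR-200a to dre-miR-200c kept its direction, with gut minus brain at -0.96 to -0.88.

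In 0 of 17 comparisons was every correlation of same-numbered libraries above 0.1 (range -0.23 to 0.25). A single low correlation fails that rule, so it cannot exclude pairing. Libraries matched best with their own number in 5 of 6 cases in female over male gut and in 0 of 6 in female gut over female brain. With the replicate number as a block, 4 members were called in the liver against brain difference in place of 5. Levels scaled by library total moved by more than the replicate SD in 28 of 66 cases, and with 277699 reads in the shallowest library dre-miR-429b rests on 1 to 3 reads in ovary.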
